A study of Mus musculus with 2 samples.

Results

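The nuclear genes for subunits of the mitochondrial respiratory chain were examined in erythroid progenitor cells of the mouse. Members were all nuclear protein-coding genes of the GENCODE mouse annotation whose symbol starts with Ndufa, Ndufb, Ndufc, Ndufs, Ndufv, Uqcr, Cox4i, Cox5, Cox6, Cox7, Cox8 or Atp5, or is Sdha, Sdhb, Sdhc, Sdhd or Cyc1. The assembly factors named Ndufaf were left out. The rule, which uses no measured value, found 86 genes of 21461 nuclear protein-coding genes: 38 of complex I, 4 of complex II, 9 of complex III, 18 of complex IV and 17 of complex V. Grouping follows the symbol, so Ndufa4 and Ndufa4l2 are counted with complex I although the Ndufa4 protein is now placed in complex IV. Atp5s and Cox7a2l match the rule too, although their proteins are better known as accessory factors than as structural subunits.

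The study holds 1 group of 2 libraries of total RNA, and it has no treated, mutant or control samples. The cells are primary cells called CFU-Ery, erythroid progenitors named for the colonies they form, taken from adult C57BL/6J mice, male and 5 to 6 weeks of age, and the linked protocol describes progenitor isolation from bone marrow. Each library started from 1 ng of RNA, and the other linked protocol is written for pools of few cells. The labels name the libraries biological replicates 1 and 2, with separate biosamples under the same donor record, so the spread between them may be in part technical. An exact test by sign flips over n = 2 gives p = 0.5 at best, so no test was made, and every value below is a description with the SD over the 2 libraries.

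The respiratory chain carries electrons from NADH (complex I) and succinate (complex II) through coenzyme Q to complex III, then by cytochrome c to oxygen at complex IV. The proton gradient this builds across the inner membrane drives the ATP synthase, complex V. A few hydrophobic subunits are encoded in mitochondrial DNA, and all others are nuclear genes whose proteins are imported. Complex II is entirely nuclear. Erythroid progenitors hold mitochondria, which also carry out the first and last steps of haem synthesis, and the maturing red cell later loses them.

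Levels are given in TPM, the length-corrected share of a gene among all transcripts of a library on a fixed total. The 2 mitochondrial rRNA genes took 76.8% of all TPM in replicate 1 and 74.7% in replicate 2, which leaves a small part of the fixed total for nuclear genes. When TPM is rescaled over the nuclear protein-coding genes only, 1 deposited TPM corresponds to 43.1 rescaled TPM in replicate 1 and 37.0 in replicate 2. Replicates 1 and 2 held 143491647 and 110634458 expected counts. Nuclear protein-coding genes took 4717790 and 4093202 of these, and the 86 members 19705 and 17673. All 10 erythroid markers were at 1 TPM or more in both libraries and together held 16.1% of nuclear protein-coding TPM in each. Most of this sum was globin, with Hbb-bs at 2287 and 2623 TPM and Hba-a1 at 1122 and 1353 TPM. Of 10 granulocyte and monocyte markers 8 were at that level, with none at 0 and a summed share of 2.34% and 2.72%. Of these, S100a9 (172.76 and 249.5 TPM) and S100a8 (170.45 and 236.81 TPM) exceeded every erythroid marker outside the globins, the highest being Slc4a1 at 123.88 and 148.57 TPM. Macrophage markers (5 of 8, 0.0519% and 0.0575%), B lymphoid markers (3 of 6, 0.0690% and 0.0666%) and T and NK markers (1 of 5, 0.0137% and 0.0127%) were lower. No megakaryocyte marker of 5 and none of 6 markers of stem and multipotent progenitor cells reached 1 TPM in both libraries. The latter list includes Kit, at 0.43 and 0.36 TPM. What other cell types contributed to the members' levels was not tested, and in bulk RNA fewer cells of a type and less RNA per cell cannot be told apart.

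The promoters of 3 members show the letters that are counted across all of them. NRF1 and GABPA, an ETS family factor, are transcription factors known for driving genes of the respiratory chain, and YY1 is often named beside them. The sequences come from the RefSeq table (GRCm38.p6) and are the 200 bases just before a RefSeq start site, 5′ to 3′ on the gene's strand, with matches in capitals. Cox6a1 encodes the ubiquitous form of subunit 6A of complex IV (chr5:115348959-115349158, minus strand) and is shown because its promoter holds the NRF1 letters and the ETS letters together. Uqcrh, the hinge protein of complex III (chr4:116075071-116075270, minus strand), holds an ETS match beginning 10 bases before its start. Atp5g3, a gene for the membrane ring of complex V (chr2:73911327-73911526, minus strand), is shown as a highly expressed member with none.
Cox6a1: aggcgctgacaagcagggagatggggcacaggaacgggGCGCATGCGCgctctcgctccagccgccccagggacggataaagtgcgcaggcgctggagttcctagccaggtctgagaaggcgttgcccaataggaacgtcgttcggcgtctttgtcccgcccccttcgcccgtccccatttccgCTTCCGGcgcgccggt
Uqcrh: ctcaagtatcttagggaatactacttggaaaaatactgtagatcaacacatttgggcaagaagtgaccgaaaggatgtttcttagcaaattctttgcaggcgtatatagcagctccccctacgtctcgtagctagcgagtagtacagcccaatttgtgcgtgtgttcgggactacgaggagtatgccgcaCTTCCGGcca
Atp5g3: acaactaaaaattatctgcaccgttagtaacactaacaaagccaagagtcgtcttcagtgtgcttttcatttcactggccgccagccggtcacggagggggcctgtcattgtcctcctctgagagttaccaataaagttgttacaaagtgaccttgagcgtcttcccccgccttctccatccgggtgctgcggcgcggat
The capitals in Cox6a1 mark GCGCATGCGC, in which GCATGCGC reads on both strands, and CTTCCGG, the reverse complement of the ETS letters CCGGAAG. In GENCODE M21, which gives the gene coordinates used elsewhere, exons of the gene itself reach 23 bases into the Cox6a1 window and 1 base into that of Uqcrh, so the ETS letters of Cox6a1 lie inside its exon there.

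Motifs were searched as exact letters on both strands of windows from 250 bases before to 50 after the start: GCATGCGC for NRF1, CCGGAAG for ETS and AGATGGCG for YY1. The end of the ETS letters can overlap the beginning of the YY1 letters by 2 bases, and the end of the NRF1 letters can overlap the ETS letters by 1 base. A window was found for 69 of the 86 members. The NRF1 letters stood in 10 members (14.5%), beside 4.10% of 16644 nuclear protein-coding genes with a window. The ETS letters stood in 16 members (23.2%), beside 13.3% of all genes. The YY1 letters stood in 8 members (11.6%), beside 2.91%. Both NRF1 and ETS letters stood in 5 members (7.25%), namely Atp5k, Atp5l, Cox6a1, Sdhb and Uqcr11, beside 0.817% of all genes. Among genes at 1 TPM in both libraries the shares lay closer for NRF1, at 12.5% of 48 members and 6.99% of 2204 genes, and for ETS, at 27.1% and 23.0%. For YY1 they were 8.33% and 4.85%, and for NRF1 and ETS together 8.33% (4 members) and 1.63%. Of the 48 members with a window and at least 1 TPM, the 13 with ETS letters had a median of 4.80 TPM and the 35 without had 2.66 TPM. The NRF1 letters went the other way, with 2.28 TPM for 6 members and 3.05 TPM for 42. A match is a description of letters and was not tied to binding here.

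Many members share their promoter region with another protein-coding gene. For 31 of 86 members (36.0%) a protein-coding gene on the opposite strand starts within 1000 bases and points away, beside 10.8% of all 21461 nuclear protein-coding genes and 18.6% of the 2701 that reached 1 TPM. Atp5j, which encodes stalk subunit F6 of complex V, is paired in this way with Gabpa itself. Atp5j stood at 5.34 TPM in replicate 1 and 5.84 TPM in replicate 2, and Gabpa at 1.14 and 1.20 TPM. The annotated starts of Atp5j and Gabpa overlap by 700 bases, and since use of strand is not stated, their reads there cannot be told apart. Over protein-coding transcripts alone Atp5j stood at 0.72 and 0 TPM and Gabpa at 0.55 and 0.80 TPM. The order of this pair thus turned in replicate 2 and in the mean (0.36 against 0.675 TPM), but not in replicate 1. By mean TPM over all transcripts the member was the higher gene in all but 2 of the 32 pairs. By mean TPM over protein-coding transcripts it was the higher in all but 3, the third being Atp5j. The exceptions on both measures were Rps28, a ribosomal protein gene beside Ndufa7 (9.99 TPM against 2.58 over all transcripts), and Eef1b2, an elongation factor gene beside Ndufs1 (8.24 TPM against 1.80).

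Of the 86 members, 61 (70.9%) reached 1 TPM in both libraries, beside 12.6% of nuclear protein-coding genes. At 1 rescaled TPM, 79 members (91.9%) did so, beside 44.6%. The median member stood at 2.22 ± 0.354 TPM (SD, n = 2), or 88.0 ± 4.55 rescaled TPM. The median of the 10679 nuclear protein-coding genes with counts in both libraries was 0.410 ± 0.0283 TPM, and that of the 2701 genes at 1 TPM was 2.55 ± 0.184 TPM. The members together held 1.08% ± 0.0118 of nuclear protein-coding TPM. Their levels spread widely, since 15 members averaged at least 5 TPM and 3 at least 10 TPM, while 5 had no count in either library. Across the 61 detected members the log2 TPM of the libraries correlated with Pearson r = 0.875 and Spearman rho = 0.848; members are not independent replicates.

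**Figure D1:**
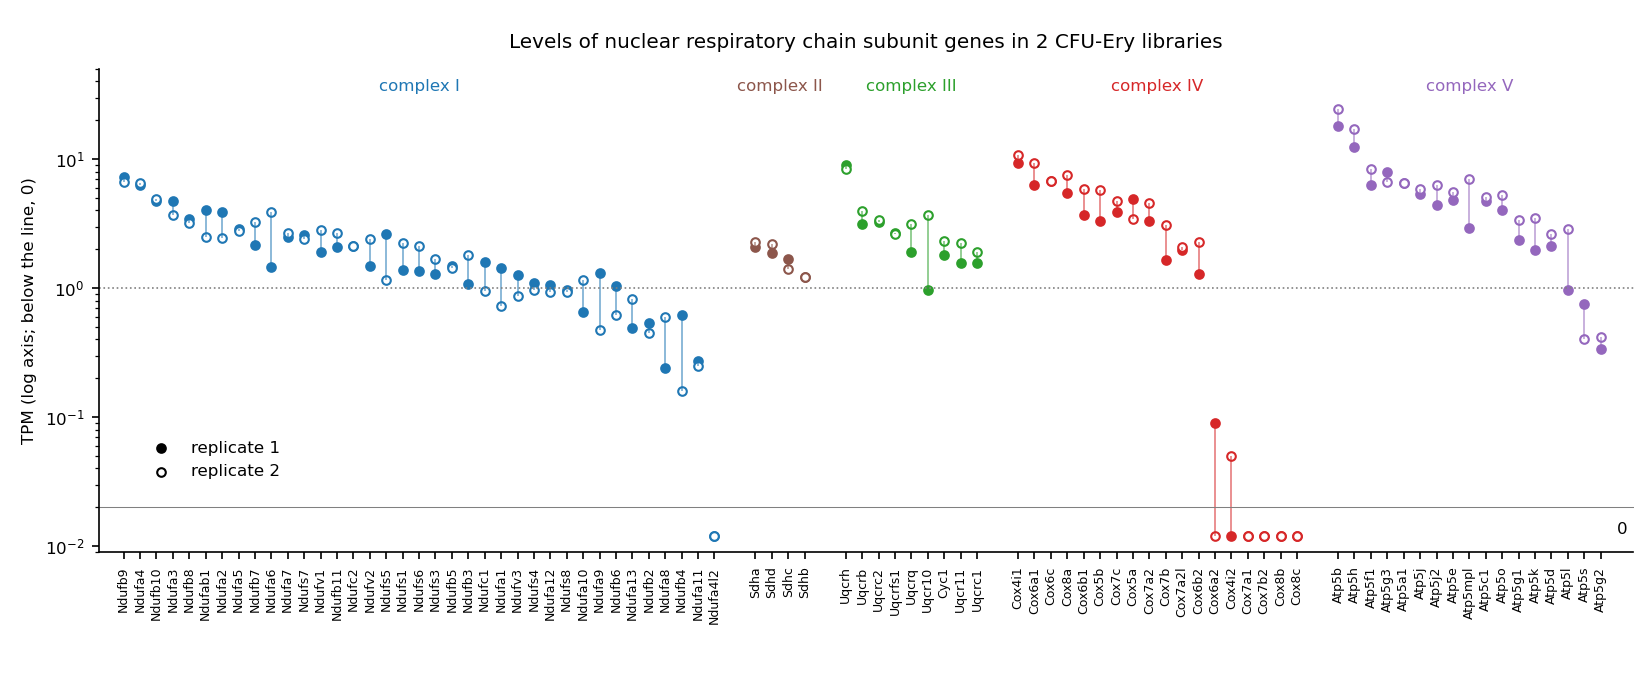
TPM of 85 of the 86 members (log axis) in replicate 1 (filled points) and replicate 2 (open points), ordered by mean TPM within each complex; the dotted line is 1 TPM and points under the grey line are at 0. Complex V starts highest, with Atp5b at 17.94 and 24.54 TPM, and the members at 0 are forms of complex IV subunits and Ndufa4l2.

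Complex V genes stood highest among the 5 groups and complex I and II genes lowest. The median was 5.01 ± 0.799 TPM in complex V, 2.94 ± 0.431 in complex IV, 2.52 ± 0.884 in complex III, 1.78 ± 0.0177 in complex II and 1.72 ± 0.346 in complex I. Relative to the median of all members in the same library, on the log2 scale, complex V was at 1.18 in each library, complex IV at 0.41 ± 0.02, complex III at 0.15 ± 0.29, complex II at -0.30 ± 0.22 and complex I at -0.37 ± 0.06. The place of complex V and of complex I kept its sign under every setting tried, whereas complexes I and II could not be put in order. Complex II was the lower in replicate 2 (-0.46 against -0.33), among members at 1 TPM (-0.79 against -0.31) and without the members that have fractional counts (-0.30 against -0.16). Complex III fell to -0.06 in replicate 1 alone and complex IV to -0.29 without the members of fractional counts. Complex V members held 36.3% ± 2.38 of all member TPM, complex I 28.9% ± 3.49, complex IV 21.7% ± 1.15, complex III 10.6% ± 0.201 and complex II 2.58% ± 0.240.

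In complex I, the NADH-oxidising entry of the chain, 23 of 38 members reached 1 TPM in both libraries. The highest were Ndufb9, a membrane arm accessory subunit, at 7.23 and 6.66 TPM, Ndufa4 at 6.29 and 6.5 TPM, and Ndufb10 at 4.75 and 4.94 TPM. These 3 differed little between the libraries. The lowest were Ndufa4l2, with no count in either library, and Ndufa11, a membrane arm subunit, at 0.27 and 0.25 TPM.

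The 7 catalytic core subunits of complex I encoded in the nucleus, which together hold the flavin and the iron-sulphur clusters, had means from 0.945 to 2.505 TPM. Ndufv1, the flavin-binding subunit where NADH is oxidised, stood at 1.91 and 2.84 TPM, and its partner Ndufv2 at 1.48 and 2.41 TPM. Ndufs1, the large subunit with several iron-sulphur clusters, stood at 1.38 and 2.22 TPM. All 3 were higher in replicate 2, but for Ndufv1 and Ndufv2 less so in counts not divided by length. Centred on the median of nuclear protein-coding genes, their log2 count ratios of replicate 1 to 2 were -0.10 and -0.15. In TPM these were -0.43 and -0.56. For Ndufs1 the ratio was -0.48 in counts and -0.55 in TPM. Ndufs7, at the site where coenzyme Q is reduced, stood at 2.59 and 2.42 TPM. Ndufs3 stood at 1.28 and 1.69 TPM, and Ndufs8, which carries 2 iron-sulphur clusters, at 0.96 and 0.93 TPM as the lowest of the 7. The median of the core was 1.94 ± 0.651 TPM, that of the 9 accessory subunits of the peripheral arm 1.75 ± 0.530 and that of the other 22 members 1.42 ± 0.173. The core and all 31 accessory members therefore differed by 0.38 on the log2 scale of medians, less than the spread between libraries (0.02 in replicate 1, 0.74 in replicate 2), and the sign turned among members at 1 TPM (-0.40).

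Complex II, which oxidises succinate within the citric acid cycle, had all 4 members at 1 TPM and the narrowest range. Sdha, the flavoprotein, stood at 2.07 and 2.28 TPM, and Sdhb, the iron-sulphur subunit, at 1.23 in both libraries. The membrane anchors Sdhc and Sdhd stood at 1.68 and 1.41 TPM and at 1.86 and 2.18 TPM. The highest mean of the 4 was 1.77 times the lowest, whereas the ratio of highest to lowest detected member was 4.84 in complex I, 5.03 in complex III, 5.63 in complex IV and 8.94 in complex V. Those complexes had 23, 8, 12 and 14 detected members, and such a ratio tends to grow with the number of members.

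In complex III, which passes electrons from coenzyme Q to cytochrome c, 8 of 9 members reached 1 TPM in both libraries. Uqcrh stood above the rest at 9.05 and 8.34 TPM, followed by Uqcrb at 3.14 and 3.98 TPM and the core protein gene Uqcrc2 at 3.26 and 3.36 TPM. The redox subunits were lower. Uqcrfs1, the Rieske iron-sulphur protein, stood at 2.69 and 2.61 TPM and Cyc1, cytochrome c1, at 1.80 and 2.30 TPM. The lowest means were those of Uqcr11, at 1.57 and 2.22 TPM, and of the other core protein, Uqcrc1, at 1.56 and 1.90 TPM. Uqcr10 was the member under 1 TPM, at 0.96 TPM in replicate 1 and 3.68 TPM in replicate 2.

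In complex IV, cytochrome c oxidase, 12 of 18 members reached 1 TPM. The highest were Cox4i1 at 9.33 and 10.73 TPM, Cox6a1 at 6.31 and 9.41 TPM and Cox6c at 6.80 and 6.78 TPM. The first place of Cox4i1 rested on transcripts with a retained intron, since 36.5% and 65.5% of its TPM lay on protein-coding ones, which gave 3.41 and 7.03 TPM, under Cox6a1 and Cox6c in the mean. The 6 members under 1 TPM were all forms limited to certain tissues, and 4 of them, Cox7a1, Cox7b2, Cox8b and Cox8c, had no count in either library.

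Complex IV subunits exist in ubiquitous forms and in forms that belong mainly to muscle, lung or testis, and these cells held the ubiquitous ones at nearly every position. Cox4i1 had 539 and 562 counts, while Cox4i2, the lung and hypoxia form, had 0 and 3. Its level was at least 244-fold lower in replicate 1, with 0 counts set at 3, and 217-fold lower in replicate 2 (95% exact binomial interval of counting error 74.0 to 1057). With Cox4i1 taken over protein-coding transcripts alone, Cox4i2 was at least 89.3-fold lower in replicate 1 and 142-fold lower in replicate 2. Cox6a1 had 363 and 420 counts and Cox6a2, the heart and muscle form, 6 and 0, a ratio of 72.6 (33.0 to 199) in replicate 1 and at least 168-fold in replicate 2. Against the muscle form Cox7a1, Cox7a2 was at least 33.3-fold and 35.6-fold higher. Cox7b was at least 29.7-fold and 42.4-fold higher than Cox7b2, which is known from testis, and at least 26.3-fold and 17.5-fold higher over protein-coding transcripts of Cox7b alone. Cox8a was at least 54.2-fold and 57.5-fold higher than the muscle form Cox8b, and at least 81.5-fold and 86.9-fold higher than the testis form Cox8c. Ndufa4 was at least 228-fold and 184-fold higher than Ndufa4l2, a hypoxia-induced relative. The tissue-limited forms with 0 counts allow, at 3 counts in a library, levels of up to 0.0275 to 0.130 TPM.

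Cox6b2 was the exception. This gene (chromosome 7, 4751792 to 4753094, minus strand, mm10) encodes the form of subunit 6B known from testis, which sits at the face where cytochrome c docks. It had 64 counts and 1.29 TPM in replicate 1 and 86 counts and 2.27 TPM in replicate 2. The ubiquitous Cox6b1 had 180 and 223 counts, or 3.69 and 5.90 TPM. Cox6b1 was thus 2.87-fold higher (95% interval 2.15 to 3.88) and 2.60-fold higher (2.02 to 3.37), and both libraries gave a similar ratio. Cox6b2 has no stretch of 25 bases in common with another gene of the annotation and overlaps no other annotated gene. Protein-coding transcripts carried 78.3% and 67.4% of its TPM, and with those transcripts alone the log2 ratio of the pair was 1.91 in place of 1.45.

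**Figure D2:**
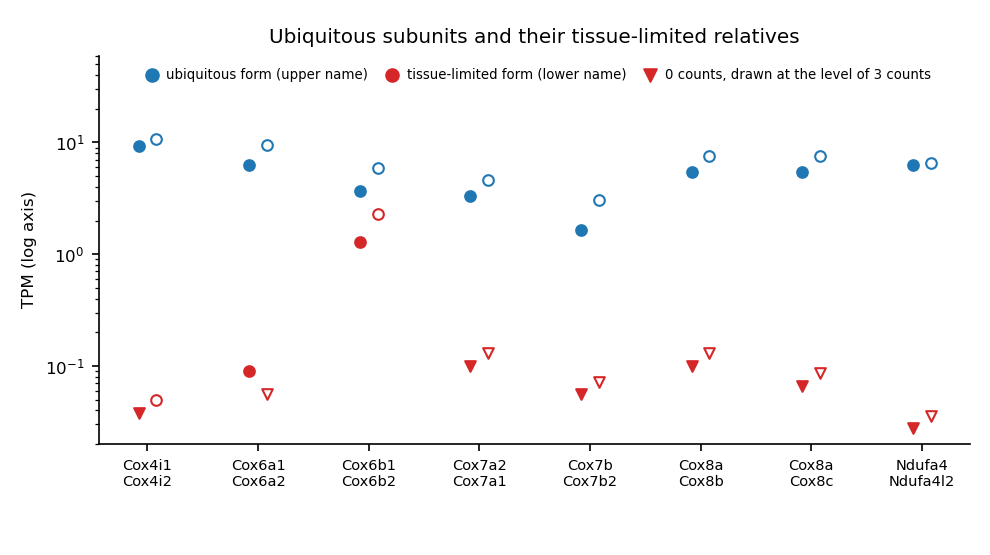
TPM (log axis) of each ubiquitous subunit gene (blue, upper name) and of its tissue-limited relative (red, lower name), with replicate 1 filled and replicate 2 open; triangles are genes with 0 counts, drawn at the level that 3 counts would give. Cox6b2 at 1.29 and 2.27 TPM is the tissue-limited gene drawn near its ubiquitous partner, and every other one lies under 0.2 TPM.

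In complex V, 14 of 17 members reached 1 TPM. Atp5b, the catalytic beta subunit of the F1 head (chromosome 10, 128083273 to 128090391, plus strand, mm10), was the highest of all 86 members at 17.94 and 24.54 TPM and ranked 122 among nuclear protein-coding genes. Atp5h, a subunit of the peripheral stalk, followed at 12.37 and 17.15 TPM, and the stalk subunit gene Atp5f1 at 6.26 and 8.42 TPM. All 3 were higher in replicate 2. Atp5a1, the alpha subunit that alternates with beta in the head, stood at 6.58 and 6.54 TPM. The lowest were Atp5s, at 0.75 and 0.40 TPM, and Atp5g2, at 0.34 and 0.42 TPM. The 5 genes of the F1 head had a median of 5.22 ± 0.502 TPM and the other 12 of 4.54 ± 1.47, which did not differ beyond the spread between libraries (log2 ratio 0.47 in replicate 1 and -0.0013 in replicate 2).

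The membrane ring of complex V is built from copies of a protein, subunit c, that 3 nuclear genes encode with the same mature sequence. Their summed level was 10.6 ± 0.106 TPM and nearly equal in the libraries. Atp5g3 carried 69.3% ± 7.67 of it, Atp5g1 27.1% ± 7.10 and Atp5g2 3.60% ± 0.572. The order of the 3 genes was the same in both libraries. Of the 25-base stretches of Atp5g2, 40.8% occur in another gene, so its low value is uncertain.

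Part of the TPM of several members came from transcripts that the annotation does not class as protein-coding. Of the 55 members with a mean of at least 100 counts, the median share of TPM on protein-coding transcripts was 99.3% ± 0.165, beside 98.8% ± 0.494 over 5340 nuclear protein-coding genes. In 8 of the 55 (14.5%) it was under 50% in both libraries, beside 11.3% of those genes. Among the 8, named after their values were seen, were Ndufb8, Ndufab1, Ndufv1, Ndufs1, Atp5b, Atp5f1 and Atp5j. By counts rather than TPM, 77.5% ± 2.04 of the members' reads were assigned to protein-coding transcripts, 8.27% ± 1.63 to transcripts with a retained intron, 7.16% ± 0.112 to processed transcripts and 6.81% ± 0.285 to transcripts marked for nonsense-mediated decay.

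The leading place of Atp5b rested on such a transcript. A non-coding processed transcript of 478 bases carried 55.7% of its TPM in replicate 1 and 71.6% in replicate 2. The coding transcript of 1916 bases held 54.3% and 48.1% of the reads of Atp5b, but since it is longer this gave 3.75 and 3.92 TPM, or 20.9% and 16.0% of the gene's TPM. Over protein-coding transcripts alone Atp5b ranked 18 among the members. Atp5f1 fell from rank 6 to rank 70, with 5.11% and 7.84% of its TPM on coding transcripts, since 85.1% and 86.8% lay on a transcript marked for nonsense-mediated decay. Atp5j had 13.5% and 0% on coding transcripts and Ndufa5 7.96% and 0%, with the rest mainly on transcripts with a retained intron. Ndufb10 fell to 1.59 and 2.77 TPM, Ndufs3 to 0.19 and 0.57, Ndufs7 to 0.36 and 2.14, and Uqcrh to 3.96 and 6.75, while Atp5a1 fell to a mean of 3.07 TPM. The highest members on this measure were Atp5h at a mean of 7.93 TPM, Cox6a1 at 7.86, Ndufb9 at 6.95, Atp5g3 at 6.88 and Cox6c at 6.57. The medians of the complexes were then 3.07 ± 0.608 TPM for V, 2.09 ± 0.410 for III, 2.01 ± 0.0672 for IV, 1.45 ± 0.0247 for II and 1.02 ± 0.0707 for I. Complex V had the highest and complex I the lowest median on this measure, the log2 ratio of complex V to all members being 0.87, and the core of complex I then lay under its accessory subunits (-0.44). Assignment among transcripts of a gene is an estimate, and the top transcript was the same in both libraries for 39 of 57 members with more than 1 transcript.

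**Figure D3:**
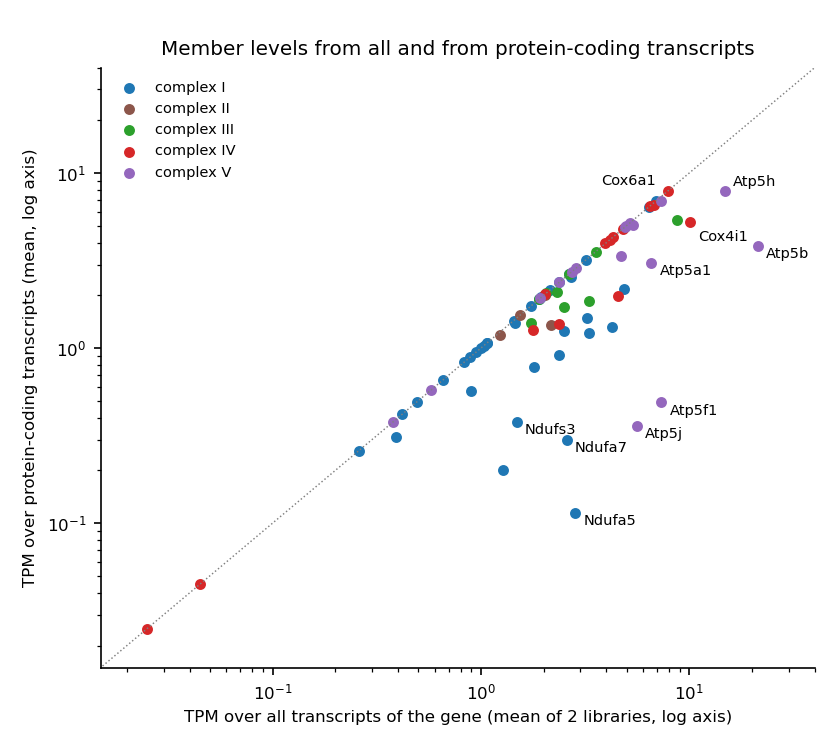
Mean TPM of the members drawn, those with counts, over all its transcripts (x, log axis) against that over protein-coding transcripts alone (y, log axis), coloured by complex, with the dotted line marking equal values. Most members lie on the line, while Atp5b falls to 3.84 TPM and Atp5f1, Atp5j and Ndufa5 fall under 1 TPM.

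The libraries were also compared member by member, as the log2 ratio of TPM in replicate 1 to replicate 2 centred on the median of nuclear protein-coding genes. Of 55 members with a mean of at least 100 counts, 3 were over 2-fold apart, beside 7.92% of 5339 nuclear protein-coding genes. Ndufa9, an accessory subunit of the peripheral arm of complex I, stood at 1.31 TPM (206 counts) in replicate 1 and 0.47 TPM (58 counts) in replicate 2, a centred log2 ratio of 1.62 (95% counting interval 1.19 to 2.07). Ndufa6, another accessory subunit of that complex, went the other way, with 1.46 and 3.86 TPM (82 and 168 counts) and a ratio of -1.26 (-1.66 to -0.87). Atp5mpl, a small membrane subunit of complex V, stood at 2.94 and 7.03 TPM and had a ratio of -1.12 (-1.51 to -0.74). The next furthest were Ndufab1 and Ndufa2, each at 0.82, and Cox7b at -0.74. The acyl carrier protein Ndufab1 stood at 4.0 and 2.49 TPM, the small accessory subunit gene Ndufa2 at 3.92 and 2.44 TPM and Cox7b, on the X chromosome, at 1.66 and 3.06 TPM. The counts of Cox7b were close, at 178 and 184. Its protein-coding transcript went the other way, at 1.47 and 1.26 TPM, while a transcript with a retained intron stood at 0.19 and 1.8 TPM.

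Of the 55 counting intervals 31 (56.4%) left out 0, beside 64% of the 5339 nuclear protein-coding genes with the same rule. Of the 31, 11 were higher in replicate 1 and 20 in replicate 2. Of the 3419 nuclear protein-coding genes whose interval left out 0, 1685 were higher in replicate 1 and 1734 in replicate 2. By the sign of the ratio 26 of the 55 members lay toward replicate 1, beside 2669 of 5339 genes. By complex these were 13 of 21 in complex I, 3 of 4 in II, 3 of 6 in III, 3 of 11 in IV and 4 of 13 in V, and no difference between complexes was tested. The intervals cover counting error only, since reads of amplified libraries are not independent molecules. The replicate number and everything else that differs between the 2 preparations cannot be told apart.

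**Figure D4:**
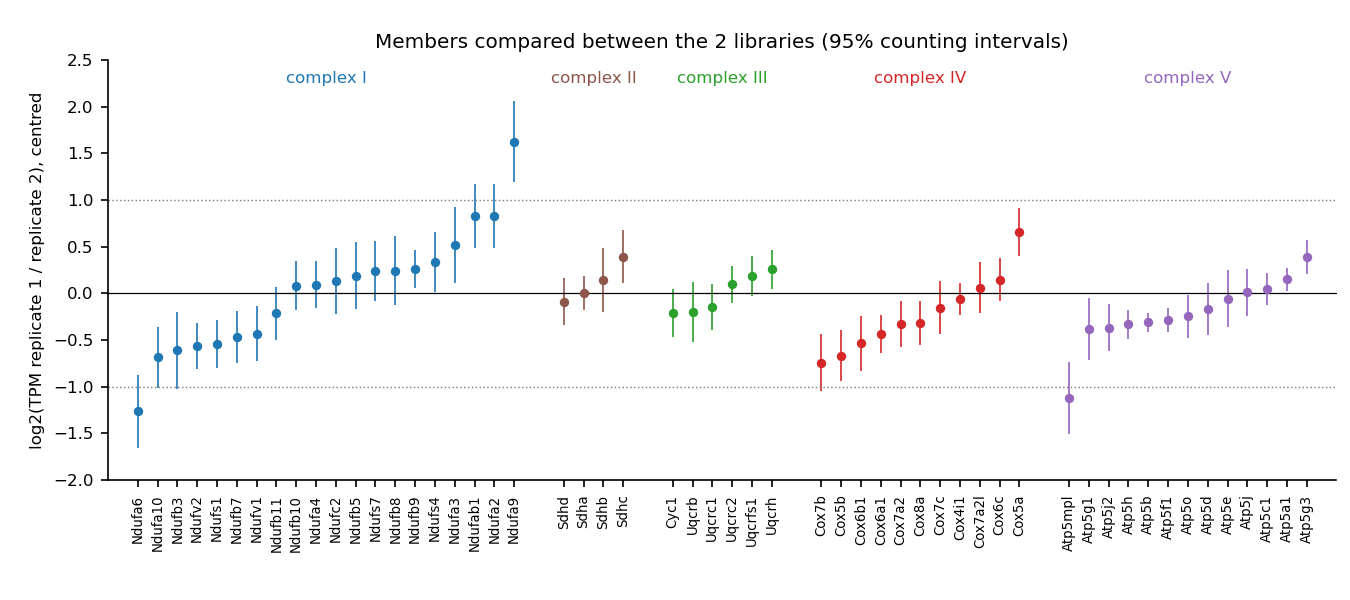
Centred log2 ratio of TPM, replicate 1 over replicate 2, for 54 of the 55 members with a mean of at least 100 counts, ordered within each complex; bars are 95% counting intervals and dotted lines mark a 2-fold difference. Ndufa9 at 1.62, Ndufa6 at -1.26 and Atp5mpl at -1.12 lie outside the dotted lines.

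The lists of genes that help to build the chain, supply its carriers or control its transcription had lower medians than the subunit genes, although single genes such as Cox17 and Nrf1 lay above the median member. Of all nuclear protein-coding genes 12.6% reached 1 TPM and 44.6% reached 1 rescaled TPM in both libraries, and their median was 0.015 TPM. Of 46 assembly factors 4 reached 1 TPM and 34 reached 1 rescaled TPM in both libraries, with a list median of 0.175 ± 0.0354 TPM. The highest were Cox17, a copper chaperone of complex IV, at 3.73 and 4.71 TPM, Cox20 at 2.82 and 4.24 TPM and Cox11 at 1.32 and 1.84 TPM, and all 3 serve complex IV. Pet117 and Sco2 had no count. Of 17 electron carriers and coenzyme Q genes 2 reached 1 TPM and 11 reached 1 rescaled TPM, with a median of 0.215 ± 0.00707 TPM. The 2 at 1 TPM were the electron transfer flavoprotein genes, Etfb at 1.14 and 2.41 TPM and Etfa at 1.29 and 1.70 TPM. Etfdh was next at 1.05 and 0.97 TPM, and the lowest were Coq8a and Pdss2. Cycs, somatic cytochrome c, stood at 0.55 and 0.87 TPM.

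Of 14 transcriptional regulators 4 reached 1 TPM and 11 reached 1 rescaled TPM, beside the same 12.6% and 44.6% of genes. The list median was 0.373 ± 0.0955 TPM. The 4 at 1 TPM were Nrf1 at 2.83 and 2.78 TPM, the coactivator gene Pprc1 at 1.68 and 2.20 TPM, Yy1 at 1.75 and 1.28 TPM, and Gabpa. Over protein-coding transcripts alone 2 of the 4 did, since Pprc1 stood at 0.74 and 0.78 TPM and Gabpa at 0.55 and 0.80 TPM. Tfam, which packages and transcribes mitochondrial DNA, stood at 0.42 and 0.41 TPM. The coactivators known from muscle, fat and liver were at or near 0, with no count of Ppargc1a in either library and 0 and 6 counts of Ppargc1b. Of the 3 members of that coactivator family, Pprc1 was therefore the one above 1 TPM over all transcripts.

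Atpif1, which encodes the inhibitor protein of the ATP synthase and is known to be needed for haem synthesis in red cell precursors, exceeded every member. It stood at 37.1 and 48.85 TPM and ranked 41 among nuclear protein-coding genes. Its level was 2.03 ± 0.0547 times that of Atp5b. Protein-coding transcripts carried 88.8% and 94.2% of Atpif1 TPM, which left it at 32.9 and 46.0 TPM, also above every member on that measure.

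**Figure D5:**
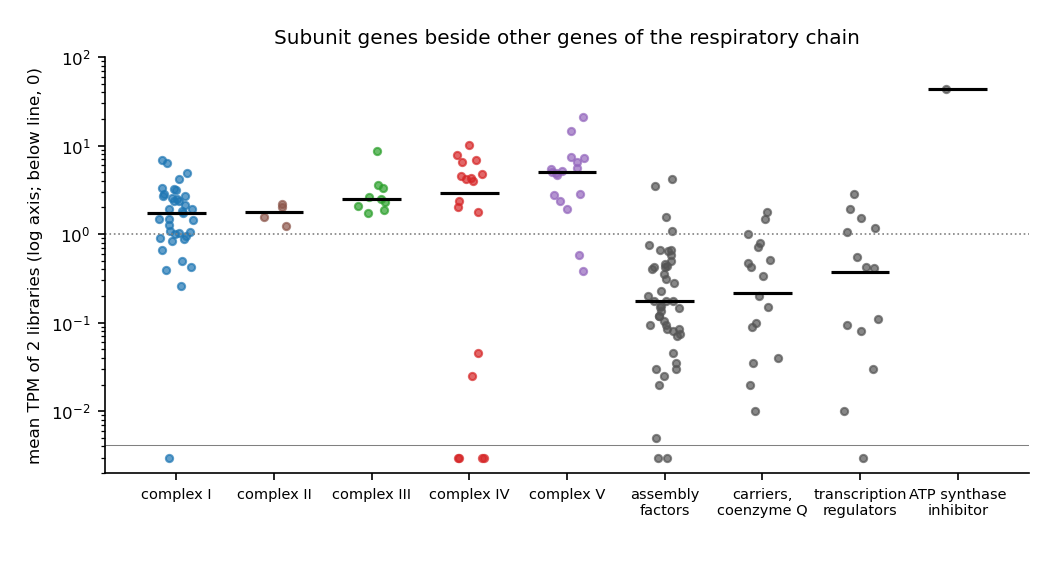
Mean TPM (log axis) of 85 genes of the 5 complexes and of the other lists of the pathway, with black bars at the median of the list (mean of the 2 libraries' medians), the dotted line at 1 TPM and genes at 0 under the grey line. The assembly factors have a median of 0.175 TPM, below every complex, and Atpif1 stands above all members at 43.0 TPM.

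The 13 subunits encoded in mitochondrial DNA were all above Atp5b in both libraries. The lowest, mt-Nd3, was 22.1 ± 4.18 times as high as Atp5b. Medians were 2999 ± 99.4 TPM for the 7 complex I genes, 6515 ± 527 TPM for mt-Cytb, 4304 ± 550 TPM for the 3 complex IV genes and 23880 ± 4757 TPM for the 2 complex V genes. On the log2 scale they exceeded the nuclear median of the same complex by 10.8 ± 0.341, 11.4 ± 0.401, 10.5 ± 0.0276 and 12.2 ± 0.521. In both genomes complex V had the highest median. In the mitochondrial genome this median rests on mt-Atp8, at 34675 and 31009 TPM, and mt-Atp6, at 19812 and 10024 TPM. The mitochondrial subunit gene with the highest mean was mt-Co1 of complex IV, at 31625 and 36061 TPM. Mitochondrial transcripts are long precursors cut into pieces, and total RNA includes those precursors.

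Several values are limited by reads that members share with other genes. In 19 members the expected counts are fractional, which marks reads divided between genes or copies, and in 25 members over 10% of the 25-base stretches occur in another gene. Among the members named here these were Atp5g2 (40.8%), Uqcrb (34.4%), Atp5h (27.6%), Ndufs3 (25.7%), Cox6a1 (23.9%), Ndufb9 (17.9%), Cox7a2l (17.8%), Atp5g1 (15.1%), Uqcr11 (14.7%), Atp5k (14.1%), Atp5l (12.8%), Ndufa11 (12.5%), Atp5f1 (12.01%) and Ndufab1 (11.4%). Another gene overlaps 38 members, for 30 of them on the opposite strand. No member transcript with counts has an exon over an annotated small RNA gene of its own strand. Among the 61 detected members TPM fell with transcript length (Spearman rho = -0.32) and counts rose with it (0.51), as a description over genes of the same libraries.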

How the data were processed

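Gene and transcript tables of both libraries were used. Per the deposited description of the files, each library was quantified separately against GENCODE M4 on mm10, starting from alignments to the transcriptome. Which aligner and quantifier were used, in which version, and whether strand was used is not given in the sources used here. The expected counts that the authors deposited are estimated reads and can be fractions of a read. Deposited TPM and its posterior mean are scaled over all entries of a table; the deposited FPKM, scaled by length and library size, were not used. The isoform percent deposited by the authors is a transcript's part of its gene's TPM, and the deposited bounds of TPM intervals, treated as a score, were not used.

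Symbols, types and coordinates came from GENCODE M21 (GRCm38, that is mm10) by Ensembl identifier; 42462 of the 69691 entries matched. Values were computed with Python 3.11.15, pandas 2.3.3 and scipy 1.17.1. Detection means 1 TPM in both libraries. Replicate ratios need a mean of 100 counts and were tested on simulated data, where all 200 genes changed 4-fold were recovered and 0 of 5187 unchanged genes exceeded 2-fold. The simulated counts held counting error alone, without differences between preparations or errors of assignment among transcripts. They therefore check the calculation and give no error rate for the real libraries. Whole numbers, rounded from the expected counts, went into the scaling factors of edgeR 4.0.16 and DESeq2 1.42.0, which served as alternatives; other values use the counts unrounded. A count of 0 was set at 3 counts per library. Shared sequence was measured in stretches of 25 bases of the annotated transcripts. Intervals are exact binomial, 95%, and cover counting error only.

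The members, the lists, the alternatives and the naming rule were chosen with earlier results of these data known. The rule names catalytic and redox subunits, the 3 highest and 2 lowest of each complex, tissue-limited forms, the 3 members furthest apart in each direction, members with 0 counts, and of the other lists the 3 highest and 2 lowest with Tfam, Nrf1, Gabpa, Ppargc1a, Ppargc1b, Cycs and Atpif1; further names were chosen after their values were seen. The values of 1 member are not reported here; it stays in all counts and medians and is left out of the figures.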

Additional observations from a re-analysis of the deposited data

How the results depend on the processing

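Every value rests on 2 libraries, and no paired analysis was possible because there is 1 group and no test. The count of members at 1 TPM ranged from 64 to 68 in 1 library alone and was 50 with protein-coding transcripts alone, an alternative chosen after seeing the data. The log2 ratio of a complex's median to all members, in the order I to V, was -0.31, -0.79, -0.26, 0.53 and 0.81 among members at 1 TPM, so complex III reversed there, and it also reversed to -0.056 without replicate 2 (0.35 without replicate 1). Without members of fractional counts it was -0.16 in complex I, -0.29 in complex IV, a reversal, and 1.23 in complex V. With counts per annotated length it was -0.44 in complex I, 0.35 in complex IV and 1.04 in complex V, with posterior mean TPM 0.36 in complex IV and 1.12 in complex V, and with protein-coding transcripts alone -0.71 in complex I, 0.27 in complex IV and 0.87 in complex V. In single libraries complex I ranged from -0.42 to -0.33, complex II from -0.46 to -0.15, complex IV from 0.40 to 0.42, and complex V was 1.18. The core of complex I against its accessory members reversed to -0.40 at 1 TPM and to -0.44 with protein-coding transcripts, and ranged from 0.02 to 0.74 in single libraries. The F1 head against the rest of complex V reversed to -0.025 at 1 TPM and ranged from -0.0013 to 0.47 in single libraries. Mitochondrial over nuclear medians moved to 10.8 in complex IV with posterior means and to 11.6 in complex V with counts per annotated length, and ranged from 10.5 to 12.6 over complexes in single libraries. The cause of these shifts was not tested, apart from the number of members that each alternative leaves.

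The log2 ratio of Cox6b1 to Cox6b2 was 1.21 with posterior means, 1.91 with protein-coding transcripts and 1.38 to 1.52 in single libraries. Ratios to genes at or near 0 depend on the floor and on length. With counts not divided by length they were 7.52 for Cox4i1 over Cox4i2, 6.55 for Cox7a2 over Cox7a1, 5.91 for Cox7b over Cox7b2, 6.66 for Cox8a over Cox8b and over Cox8c, and 6.46 for Ndufa4 over Ndufa4l2. With counts per annotated length they were 5.50 for Cox7a2, 6.07 and 6.47 for Cox8a over Cox8b and Cox8c, and 7.43 for Ndufa4. Posterior means, which give genes without counts a value above 0, gave 7.72, 6.81, 6.98, 7.52, 8.02 and 9.31 in the order above, with Cox8a over Cox8b before Cox8c. With protein-coding transcripts of the ubiquitous form alone, chosen after seeing the data, they were 6.82 for Cox4i1 over Cox4i2 and 4.42 for Cox7b over Cox7b2. All of these kept the ubiquitous form higher.

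The number of members over 2-fold apart was 10 of 79 at a mean of 20 counts and 10 with no filter beyond a count in both libraries, beside 20.2% and 25.3% of nuclear protein-coding genes, and 0 with log2(TPM + 1), beside 0.262%. It was 3 with edgeR's TMM factors and with DESeq2's size factors.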
